A study of Mus musculus with 3 samples.

Results

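The ribosomal protein genes described here are 47 genes that encode proteins of the cytoplasmic ribosome, 28 of the large subunit and 19 of the small subunit, out of 55536 annotated genes in the deposited tables. They were taken from a given list of symbols and matched by gene identifier to the gene and transcript tables of all 3 libraries, where all 47 were found. The RNA came from the chromatin fraction of bone marrow-derived macrophages, primary cells of strain C57BL/6J mice, after 40 min with Lipid A at 100 ng/ml. Lipid A is the membrane anchor of bacterial lipopolysaccharide and the part that Toll-like receptor 4 recognises. Ribosomal RNA was depleted before total RNA sequencing. There was 1 group of 3 biological replicates and no untreated group is analysed here, so no value below is a response to Lipid A. The starting RNA was 1 µg in replicate 1, 250 ng in replicate 2 and 500 ng in replicate 3, and the labels give sex and age as not collected. The 3 biosamples cite a single donor entry, so the spread between libraries may leave out differences between animals.

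Each ribosome holds 1 copy of nearly every ribosomal protein, and their messenger RNAs are among the most abundant in the cytoplasm of growing cells. The genes are short, carry several introns, and many host small nucleolar RNAs (snoRNAs), guides for the modification of ribosomal RNA, which are cut out of the spliced introns. Chromatin RNA holds transcripts still attached to the template, so that unspliced and partly spliced molecules are measured beside finished ones. Annotation catalogues split the transcripts of such a gene into isoform types. A protein-coding isoform has an assigned reading frame, whose completeness was not checked here, and a retained-intron isoform keeps intronic sequence of another isoform. A processed transcript has no assigned reading frame, and a nonsense-mediated decay isoform carries an early stop.

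Libraries held 12699813, 18280033 and 18087091 expected counts in replicates 1, 2 and 3. The 47 genes together took 6357, 9975 and 9850 of these counts, and single genes between 8 and 659 counts in a library. Levels are given as TPM (transcript counts scaled by length and library total) from the alignment-based gene table and compared with the median expressed nuclear protein-coding gene, which stood at a TPM of 7.56, 6.64 and 6.56 over 8765 genes. All 8 genes listed as macrophage markers were higher than this gene, though not all of them, Ptprc among these, are specific to macrophages. Ptprc and Cd14 were the highest, with mean TPM of 329 and 208, and Cd68 and Itgam the lowest, with 42.7 and 18.97. Of 14 markers of other cells 13 were lower and 7 were listed at 0 in every library; their summed TPM was 4.32, 4.80 and 3.56, most of it from the erythroid gene Alas2 at a mean of 3.38, with Col1a1 next at 0.370. The T cell gene Cd3d was at 0 in this table and at a mean of 16.9 in the alignment-free one.

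The ribosomal protein genes spread around and above the middle of expressed genes in chromatin RNA. Of 47 genes, 14 were more than 2-fold higher than the median expressed gene, 2 were more than 2-fold lower and 31 were neither (limma treat, Benjamini-Hochberg adjustment over 18397 genes). The same rule called 15.1% of all genes tested higher and 52.4% lower, so the share of higher calls, 14 of 47, was above the background and the share of lower calls, 2 of 47, below it. Genes of all types averaging 0.1 TPM or more were tested, whereas the lowest member had a mean TPM of 2.00. The shares therefore do not compare the members with genes of like level. Their median lay 0.87 ± 0.11 log2 units above the median expressed gene (SD, n = 3), at 0.82, 0.99 and 0.78 in replicates 1 to 3, whereas the median of all genes tested lay at -1.62, -1.76 and -1.71. Against the median of genes with a TPM of at least 5, the members' median turned to -0.33. The alignment-free table called 25 members higher and 0 lower. With a band of 4-fold in place of 2-fold, 1 member was higher, and without a band 31. Shares over all genes are not given here for these other settings.

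In all 3 libraries 32 members lay above the median expressed gene, and 8 lay below it in all of them. The same counts over all genes are not given here. The summed TPM of the 47 genes was 670, 681 and 672, which is 0.270%, 0.351% and 0.335% of the TPM of nuclear protein-coding genes. For comparison of levels per length, Eef1a1 alone, which encodes the elongation factor that delivers aminoacyl-tRNA, had a TPM of 473, 380 and 379.

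Large-subunit genes had the higher median. It was 1.04 ± 0.17 log2 units above the median expressed gene, against 0.67 ± 0.20 for small-subunit genes (SD, n = 3). The difference of large minus small was 0.40, 0.33 and 0.38 in replicates 1 to 3, positive in 3 of 3 libraries. An exact sign-flip test over the libraries gave p = 0.25, the smallest value it can give here. The same genes were measured in each library, so this describes these genes. Alignment-free the difference was 0.21 ± 0.12. Of 28 large-subunit genes 10 were higher, 17 neither and 1 lower, and of 19 small-subunit genes 4 were higher, 14 neither and 1 lower. The ranges of the subunits overlapped almost completely, from a mean TPM of 2.00 to 60.5 among large-subunit genes and from 2.18 to 31.8 among small-subunit genes.

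**Figure D1:**
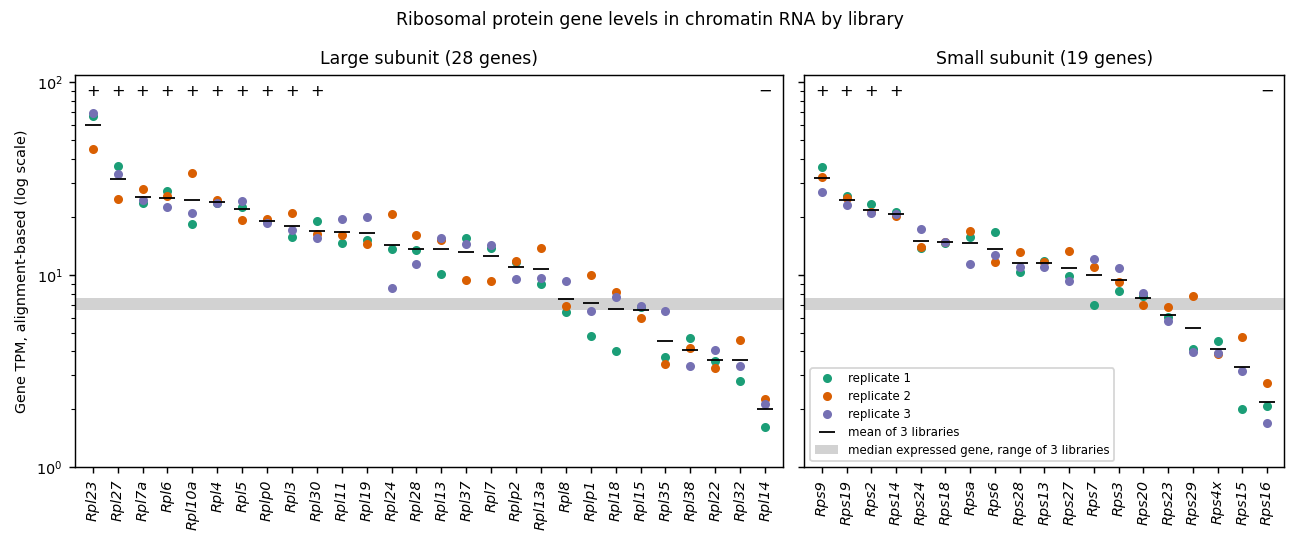
Gene TPM (log scale) of the 28 large-subunit and 19 small-subunit genes in each of 3 libraries (points) with their mean (bar); the grey band is the median expressed gene, and + and − mark genes called higher or lower. Rpl23 stands highest, and Rpl14 and Rps16 are the only genes marked lower.

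Rpl23 was the highest member. It encodes a large-subunit protein that also binds the p53 regulator Mdm2, and lies on chromosome 11 at 97777527 to 97782437, minus strand (mm10). Its TPM was 67.0, 45.3 and 69.1 in replicates 1 to 3, all far above the reference gene of the same library. The level was 3.09 ± 0.16 (SE) log2 units (adjusted p = 0.000247, limma treat; above in 3 of 3 libraries). It was also the gene that stayed called with a band of 4-fold.

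Rps9, a small-subunit protein gene on chromosome 7 at 3703993 to 3706897, had a TPM of 36.2, 32.3 and 27.0. Rpl27, a large-subunit protein gene on chromosome 11 at 101442298 to 101445529, had 36.8, 24.8 and 33.4. The values of these genes overlapped between libraries, and neither can be placed above the other. Rpl7a, on chromosome 2 at 26910764 to 26913318, had 23.5, 28 and 24.5. Rpl6, on chromosome 5 at 121204481 to 121209241, had 27.4, 25.7 and 22.6. Their levels were 2.18 ± 0.12, 2.16 ± 0.14, 1.86 ± 0.14 and 1.85 ± 0.12 log2 units (SE; adjusted p = 0.000332, 0.000498, 0.00129 and 0.00074, limma treat; each above in 3 of 3 libraries). All 4 lost the call with a band of 4-fold.

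The other 9 higher genes were Rps19, Rpl10a, Rpl4, Rpl5, Rps2, Rps14, Rplp0, Rpl3 and Rpl30, with mean TPM between 16.97 and 24.6. They include Rps19 and Rps14, whose human counterparts are linked to Diamond-Blackfan anaemia and the 5q- syndrome. Rpl5 binds 5S ribosomal RNA and Mdm2, and Rplp0 anchors the ribosomal stalk that recruits elongation factors. Its stalk partners Rplp1 and Rplp2 were neither higher nor lower, at mean TPM of 7.10 and 11.0. Rpl3 and Rpl30 passed narrowly, with adjusted p of 0.0494 and 0.0431 (limma treat).

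At the low end, Rpl14, a large-subunit gene on chromosome 9 at 120571444 to 120574654, had a TPM of 1.61, 2.25 and 2.14. Rps16, a small-subunit gene on chromosome 7 at 28350652 to 28353155, had 2.09, 2.74 and 1.70. In each library both lay below the reference gene. Their levels were -1.75 ± 0.21 and -1.65 ± 0.21 log2 units (SE; adjusted p = 0.0115 and 0.0182, limma treat; below in 3 of 3 libraries). Both calls rested on few reads, 18, 40 and 36 counts for Rpl14 and 11, 37 and 20 for Rps16, and both were lost in the alignment-free table, where the levels were -0.80 and -0.18. Rps16 was also not called with a pseudocount of 1 (adjusted p = 0.066), without replicate 1 (0.0548) or without replicate 3 (0.105).

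The next lowest were Rps15 with a TPM of 2.01, 4.75 and 3.16, Rpl32 with 2.81, 4.61 and 3.36, and Rpl22 with 3.57, 3.27 and 4.05. None of these was called with the 2-fold band, and all were without a band. Rpl22, whose protein binds double-stranded RNA, has a paralog, Rpl22l1, that is not a member. Replicate 1 was the lowest library for Rps15 and Rpl32 and not for Rpl22.

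The members varied between libraries about as much as other genes. The SD over libraries of log2 CPM (counts relative to library size, TMM scaling) had a median of 0.243 over members, against 0.272 over 12931 genes tested. It was largest for Rps15 and Rps16 at 0.63 each and smallest for Rpl38 at 0.02. Replicate 1 was the low library on this scale: 40 of 47 members lay below their own mean of 3 there, with a median deviation of -0.20, against 0.11 and 0.11 in replicates 2 and 3. The same count over all genes is not given here, so this cannot be called particular to the members. On the TPM scale replicate 1 was not the lowest, with median levels of 0.82, 0.99 and 0.78 log2 units in replicates 1 to 3. Replicate 1 is also the library with the lowest depth and the largest RNA input, whose part in this was not tested.

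Other genes of the translation machinery were counted by the same rule. Of 21 other large-subunit genes 5 were higher, 2 lower and 14 neither, with Rpl10 and Rpl27a the highest at mean TPM of 72.2 and 35.3 and Rpl36al and Rpl39 the lowest at 2.28 and 1.66. Of 14 other small-subunit genes 2 were higher, 1 lower and 11 neither; Rps27a, which encodes a ubiquitin fusion, and Rps12 had 24.9 and 23.4, and the lowest, Rps27l, had 0.997. Of 14 translation factors 5 were higher and 0 lower, with Eef1a1 and the poly(A)-binding protein gene Pabpc1 at 410 and 166, and Eif3h and Eef1d lowest at 3.53 and 2.88. Of 26 ribosome biogenesis genes 4 were higher, 9 lower and 13 neither, from Sbds and Npm1 at 66.1 and 29.2 to Nop10 and Bysl at 0.430 and 0.200. List medians were 0.51 ± 0.13, 0.16 ± 0.32, 0.70 ± 0.06 and -0.29 ± 0.16 log2 units in this order (SD, n = 3), beside 0.87 ± 0.11 for the members.

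Most of the transcript signal of the 47 genes was assigned to isoforms other than the protein-coding ones. They have 298 annotated isoforms, from 1 in Rplp1 to 19 in Rpl13a, with a median of 6. Shares of the transcript TPM of each gene were taken from the alignment-free tables, in which reads are matched to transcripts without alignment to the genome. The 101 retained-intron isoforms took 43.0% ± 1.58 of the members' summed transcript TPM, the 130 protein-coding isoforms 35.8% ± 1.26, the 52 processed transcripts 20.3% ± 1.72 and the 15 nonsense-mediated decay isoforms 0.963% ± 0.468 (SD, n = 3). By subunit, retained-intron isoforms took 41.6% ± 3.12 for the large and 45.0% ± 2.40 for the small, protein-coding isoforms 35.2% ± 1.60 and 36.8% ± 2.18, and processed transcripts 22.6% ± 2.37 and 16.6% ± 0.654. The processed-transcript share was larger for the large subunit in each library, at 22.5%, 20.2% and 25.0% against 16.3%, 16.2% and 17.4%. These pooled shares weigh each gene by its level. Rpl23, at an alignment-free mean TPM of 71.4, had 82.5% in processed transcripts, and Rps19, at 54.1, had 61.8%. The part of single genes in the difference was not tested, so it is not shown to be a trait of the subunit.

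A retained-intron isoform was the leading isoform of 20 members, a protein-coding isoform of 19 and a processed transcript of 8. The split was 10, 12 and 6 among 28 large-subunit genes and 10, 7 and 2 among 19 small-subunit genes. In 15 members the leading isoform was the principal coding isoform. In 30 members it held at least 50 bases that are intronic in the principal isoform, a measure chosen after the data were seen. The type of the leading isoform was the same in both transcript tables for 40 of 47 members. Leading isoforms were not counted over all genes, so none of these counts can be called particular to the members.

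**Figure D2:**
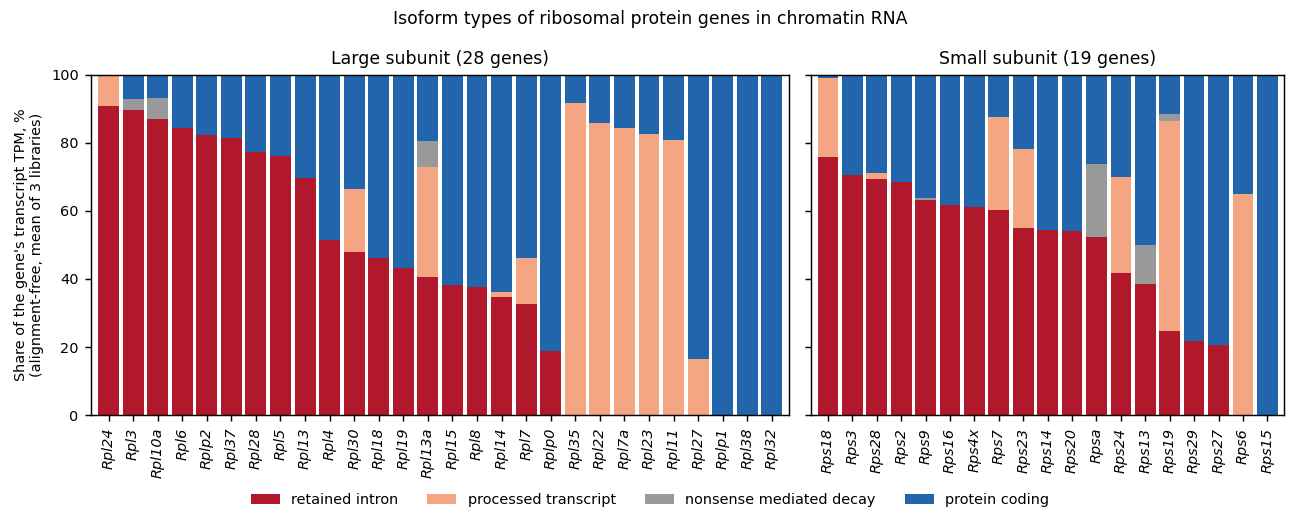
Share of each gene's transcript TPM (%, alignment-free, mean of 3 libraries) by annotated isoform type, for 28 large-subunit and 19 small-subunit genes ordered by retained-intron share. Rpl24, Rpl3 and Rpl10a are almost wholly retained intron, while Rplp1, Rpl38, Rpl32 and Rps15 have protein-coding isoforms only.

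Among the 36 members with a retained-intron isoform, the median retained-intron share was 59.9%, 53.3% and 56.7% in replicates 1 to 3, or 56.6% ± 3.31, against 41.8% ± 1.39 over 7011 genes with both isoform types and a TPM of at least 1 (SD, n = 3). In 16 of 36 members the share was above 50% in each library, in 11 below 50% in each, and in 9 on both sides. The rule called 32.4% of the 7011 genes above 50%, so 16 of 36 was above the background. From the alignment-based transcript table the members' median was 64.2%, and as a share of estimated counts 50.2%. Shares rest on estimated counts that ranged per gene from 15 for Rps15 to 655 for Rpl23 in replicate 1 and reached 1105 for Rpl23 in replicate 3.

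The median share in other genes of the translation machinery was 47.7% ± 1.57 over 17 other large-subunit genes, 55.1% ± 4.99 over 12 other small-subunit genes, 57.1% ± 5.31 over 12 translation factors and 47.8% ± 0.906 over 18 ribosome biogenesis genes (SD, n = 3).

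In the alignment-free table, the retained-intron shares of large and small subunits did not differ in a fixed direction. The median share was 55.3% ± 1.70 over 19 large-subunit genes and 55.5% ± 5.59 over 17 small-subunit genes (SD, n = 3). The difference of large minus small was -3.79, 4.15 and -0.73 percentage points in replicates 1 to 3, changing sign between libraries. From the alignment-based table it was 7.29 ± 1.79 points (SD, n = 3), with the large subunit higher in each library, so the direction depended on the table. The count above 50% in each library was 9 of 19 for the large and 7 of 17 for the small subunit.

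In the alignment-free table the highest retained-intron shares belonged to 5 large-subunit genes. Rpl24, on chromosome 16 at 55966275 to 55971435, had 90.6%, 90.2% and 91.5%, and its single protein-coding isoform took 0% in replicates 1 and 3 and 1.58% in replicate 2. Rpl3, which lies near the peptidyl transferase centre, had 90.9%, 86.1% and 91.4%, divided between 3 isoforms. Rpl10a had 86.7%, 85.8% and 88.2%, Rpl6 88.2%, 83.2% and 81.7%, and Rplp2 82.9%, 84.7% and 79.2%. The highest small-subunit gene was Rps18 with 78.6%, 75.8% and 72.9%. The order was not the same in the alignment-based table, where Rpl5 was highest at 95.7% ± 0.577, Rpl6 and Rps18 had 80.9% each, and Rpl24 had 75.9% ± 7.33 (SD, n = 3).

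Low shares in the alignment-free table belonged to both subunits. Rplp0 had 23.5%, 16.0% and 17.2% retained-intron isoforms, Rps27 20.2%, 16.2% and 25.7%, and Rps29 27.9%, 13.7% and 23.8%. Rps19 had 22.8%, 22.3% and 28.8%, and Rpl7 39.5%, 18.6% and 39.7%. Rps19 had intronic bases in another type of isoform. The leading isoform of Rps19 was a processed transcript, Rps19-208 of 286 bases with 167 intronic ones, which took 65.7%, 62.5% and 57.2%. That rested on the alignment-free TPM: processed transcripts took 61.8% ± 4.31 of Rps19 there, 21.2% ± 9.35 in the alignment-based table and 13.3% ± 2.18 as a share of estimated counts (SD, n = 3). Retained-intron isoforms took 50.3% and 67.3% of Rps19 in the alignment-based table and in estimated counts.

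**Figure D3:**
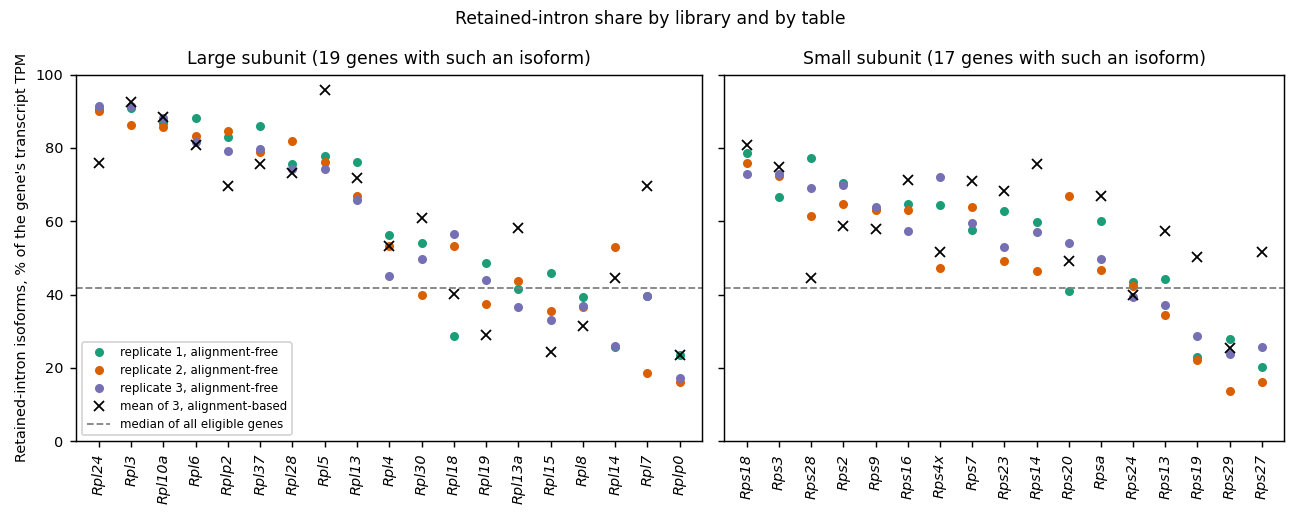
Retained-intron isoforms as a percentage of each gene's transcript TPM, for 19 large-subunit and 17 small-subunit genes, in each library from the alignment-free table (points) and as a mean from the alignment-based table (crosses); the dashed line is the median of 7011 genes. Rpl24, Rpl3 and Rpl10a stay above 85% in each library, and Rpl7, Rps27 and Rps19 show the widest gaps between tables.

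The shares themselves differed between the tables. The retained-intron share was higher in the alignment-free table for 15 of 36 members and lower for 21, and the median gap was 9.61 percentage points. It was over 10 points for 16 members and over 20 points for 5. Rpl7 had 32.6% ± 12.1 alignment-free and 69.5% ± 2.23 alignment-based, Rps27 20.7% ± 4.77 and 51.5% ± 9.38, and Rps19 24.6% ± 3.61 and 50.3% ± 5.23 (SD, n = 3). Rps28 and Rps14 were the others, at 69.2% and 54.4% alignment-free and 44.5% and 75.5% alignment-based.

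Members without a retained-intron isoform in the annotation, 9 of the large and 2 of the small subunit, fell into those assigned mainly to processed transcripts, 6 of 11, and those assigned mainly or wholly to protein-coding isoforms, 5 of 11. Processed transcripts took 91.8% ± 1.81 of Rpl35, 85.8% ± 3.72 of Rpl22, 84.4% ± 4.22 of Rpl7a, 82.5% ± 2.40 of Rpl23, 80.8% ± 3.51 of Rpl11 and 64.9% ± 5.69 of Rps6, the small-subunit protein that S6 kinases phosphorylate (SD, n = 3). In Rpl23, the highest member, Rpl23-205 of 658 bases keeps the whole first intron of 454 bases and took 37.0%, 42.8% and 44.1%. Rpl23-203, with 257 intronic bases of intron 3, took 43.6%, 34.1% and 31.7%, and the principal coding isoform took 19.3%, 18.4% and 14.8%. Rpl27 was the contrast among high members, with 79.3%, 71.5% and 75.4% in its principal coding isoform. Annotated pseudogenes that match Rpl27 took 63.6% ± 7.84 of the counts of gene and copies (SD, n = 3). The part of reads shared with these copies in the isoform shares of Rpl27 was not tested. Rplp1, Rpl38, Rpl32 and Rps15 have protein-coding isoforms only, yet in Rpl32 the coding isoform Rpl32-202, with 446 intronic bases, took 38.3%, 49.9% and 61.5%.

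Intronic sequence was not confined to the retained-intron type. Of the 52 processed transcripts 47 held intronic bases of the principal isoform, as did 52 of the 130 protein-coding isoforms. Only 44 of the 101 retained-intron isoforms held a whole intron, and 57 held part of one, and those 57 carried 70.5% of the retained-intron TPM. Counting every isoform with at least 50 intronic bases, the median share over members was 76.1%, 72.3% and 73.0%, or 73.8% ± 1.99, against 58.1% ± 1.73 over 11350 genes with introns (SD, n = 3). In 31 of 47 members it was above 50% in each library, against 51.4% of those genes. For the large subunit the median was 76.9% ± 1.32 and for the small subunit 71.9% ± 0.929. The difference of large minus small was 7.07, 4.88 and 2.85 percentage points, positive in 3 of 3 libraries. Protein-coding isoforms had a median share of 31.4% ± 1.76 over all 47 members, and of 39.4% ± 2.05 over the 7011 genes. The sets are unlike, since each of the 7011 genes has a retained-intron isoform and only 36 of the members do.

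The shares of some coding isoforms were unstable between libraries. The principal isoform Rpl7-201 took 15.0%, 73.9% and 47.6% of Rpl7, Rps27-201 took 21.2%, 50.8% and 0.000166% of Rps27, and Rps15-202 took 69.3%, 59.3% and 28.9% of Rps15. Replicate 2 was the high library for Rpl7 and Rps27 and replicate 3 the low one for Rps27 and Rps15.

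The principal isoforms of the members have 216 introns, of which 63, in 33 members, were held whole by at least 1 annotated isoform. Counts and lengths of held introns come from the annotation alone, whatever the reads. Held introns had a median length of 262 bases, against 416 bases for the others. Among first introns 18 of 47 were held. The largest share was that of intron 3 of Rpl10a, 326 bases at 28329048 to 28329373 on chromosome 17, in isoforms that took 56.8%, 63.7% and 58.6% of the gene. In Rps3, whose protein also binds the NF-κB subunit p65 in human cells, introns 4, 5 and 6 are all held by Rps3-204, which took 50.1%, 55.6% and 55.2%. In Rps13, intron 3 was held by isoforms with 46.2%, 55.2% and 46.7% and intron 5 by a partly shared set with 50.9%, 43.7% and 52.0%. Rps24 kept its last intron, 2281 bases, in 43.5%, 42.4% and 39.5%. In each of these the 3 libraries lay within 10 percentage points.

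**Figure D4:**
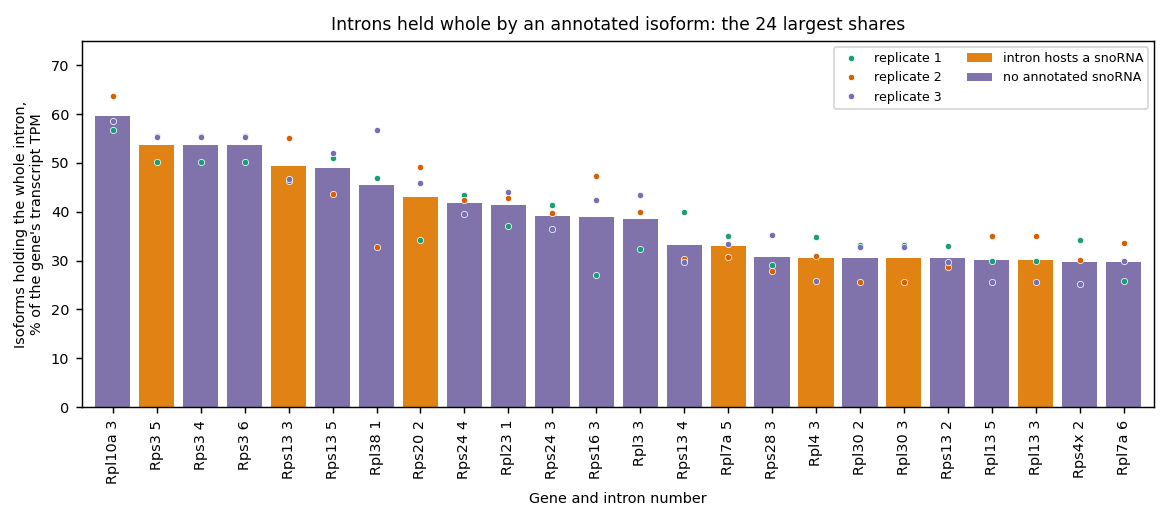
The 24 introns with the largest share of their gene's transcript TPM in isoforms that hold the whole intron (%, alignment-free; bars are means and points the 3 libraries), coloured by whether the annotation places a snoRNA inside. Intron 3 of Rpl10a leads, and 7 of the 24 host a snoRNA, the first of them intron 5 of Rps3.

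In the annotation, introns that host a snoRNA are held whole at about the share of introns in general, which is not a measure of reads. The annotation places 34 snoRNAs in 34 introns of 18 members, and 10 of these introns, 29.4%, are held whole, against 29.2% of all 216; 18 isoforms of 14 members carry snoRNA sequence within an exon. The sequences of the 6 held introns of at most 300 bases between coding exons with the largest shares are given here because the retained sequence is what the shares count. They are in transcript orientation, read from the GENCODE M21 transcripts (mm10); capitals mark the first and last pair of bases, the splice sites, and any annotated snoRNA. Each begins with GT and ends with AG.
Rps20 intron 2, chr4:3835010-3835191, minus strand, with Gm24016: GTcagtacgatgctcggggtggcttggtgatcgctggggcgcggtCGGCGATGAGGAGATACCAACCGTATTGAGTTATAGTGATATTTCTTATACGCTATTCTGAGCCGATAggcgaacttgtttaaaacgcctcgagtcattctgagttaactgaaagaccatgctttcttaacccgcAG
Rps16 intron 3, chr7:28352274-28352362, plus strand, no snoRNA: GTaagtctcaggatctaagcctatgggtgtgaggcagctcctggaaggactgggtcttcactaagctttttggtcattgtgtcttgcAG
Rpl7a intron 5, chr2:26912446-26912670, plus strand, with Gm24134: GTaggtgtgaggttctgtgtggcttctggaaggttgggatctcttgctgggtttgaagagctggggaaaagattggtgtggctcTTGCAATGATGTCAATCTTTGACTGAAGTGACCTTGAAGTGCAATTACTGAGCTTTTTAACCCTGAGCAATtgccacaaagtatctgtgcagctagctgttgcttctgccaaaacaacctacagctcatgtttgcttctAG
Rpl4 intron 3, chr9:64175301-64175583, plus strand, with Snord16a: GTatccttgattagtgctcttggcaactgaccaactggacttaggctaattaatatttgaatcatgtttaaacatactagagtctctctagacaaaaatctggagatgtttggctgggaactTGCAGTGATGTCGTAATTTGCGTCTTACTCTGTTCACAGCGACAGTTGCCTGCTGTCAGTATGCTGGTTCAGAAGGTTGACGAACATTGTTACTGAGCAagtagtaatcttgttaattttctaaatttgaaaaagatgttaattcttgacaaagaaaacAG
Rps13 intron 2, chr7:116333775-116333899, minus strand, no snoRNA: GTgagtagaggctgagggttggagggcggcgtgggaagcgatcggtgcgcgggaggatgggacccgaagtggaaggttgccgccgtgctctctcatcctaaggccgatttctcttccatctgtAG
Rpl13 intron 3, chr8:123102987-123103182, plus strand, with Snord68: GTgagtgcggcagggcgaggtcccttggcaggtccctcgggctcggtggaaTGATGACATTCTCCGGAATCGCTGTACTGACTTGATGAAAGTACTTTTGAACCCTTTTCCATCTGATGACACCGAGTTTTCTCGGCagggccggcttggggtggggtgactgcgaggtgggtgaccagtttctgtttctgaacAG

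Isoforms with these introns took 34.2%, 49.2% and 45.9% of Rps20, 27.1%, 47.2% and 42.4% of Rps16, 35.1%, 30.7% and 33.4% of Rpl7a, 34.9%, 30.9% and 25.8% of Rpl4, 32.9%, 28.8% and 29.7% of Rps13, and 29.8%, 35.1% and 25.6% of Rpl13. Replicate 1 was the low library for Rps20 and Rps16 and the high one for Rpl7a, Rpl4 and Rps13. GC content of the introns ranged from 37.5% in Rpl4 to 61.6% in Rps13.

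Of the 34 hosted snoRNAs, 68 to 203 bases long, 22 were listed at 0 in every library of the gene table and 8 were above 0 in every one. The labels give a size range of 250 to 400 for the libraries, so a value of 0 for so short an RNA does not show that it was absent. The highest was Snord15b in intron 5 of Rps3, a 145-base guide RNA, with 3389, 3575 and 3823 expected counts, against 264, 457 and 544 for the host gene. Snord15a in intron 1 of Rps3 had 579, 999 and 947 counts, and Gm26448 in intron 3 of Rpsa 300, 456 and 413. The sequence of Snord15b is part of Rps3-204 too, so reads of the snoRNA can be assigned to the retained-intron isoform; its part in that share was not tested. The snoRNAs in the printed introns of Rps20, Rpl7a, Rpl4 and Rpl13 were listed at 0 in each library.

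Start sites of ribosomal protein genes are known for a run of pyrimidines at the first transcribed base, the 5' terminal oligopyrimidine tract that ties translation to mTOR signalling. Promoters of 38 members were matched by symbol in a table from RefSeq (GRCm38.p6). In a window of 20 bases on each side of the annotated start, 18 of 38, or 47.4%, held an unbroken run of at least 8 C or T on the gene's strand, against 18.3% of 17491 protein-coding genes. The longest runs had a median of 7 bases in members and 5 in all genes. The letters CTTTCC occurred in this window on the gene's strand in 8 members, 21.1%, against 2.08% of all genes, and on either strand anywhere from 250 bases before to 50 after the start in 47.4%, against 25.9%. The run length and the letters were chosen after the data were seen, and a match is a description of the window. The windows with the 3 longest runs and that of Rpl23, the highest member, show the range; capitals mark the longest run.
Rpl7a, chr2:26910787-26910826, plus strand: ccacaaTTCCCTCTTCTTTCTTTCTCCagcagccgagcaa
Rpl35, chr2:39005112-39005151, minus strand: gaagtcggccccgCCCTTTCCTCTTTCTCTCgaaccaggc
Rpl15, chr14:18270967-18271006, minus strand: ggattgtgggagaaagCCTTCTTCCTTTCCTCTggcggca
Rpl23, chr11:97782420-97782459, minus strand: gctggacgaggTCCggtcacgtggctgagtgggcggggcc

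The run was 21 bases in Rpl7a, 18 in Rpl35, 17 in Rpl15 and 3 in Rpl23. The mean TPM of these genes was 25.3, 4.55, 6.55 and 60.5 in the same order.

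Many members have processed pseudogenes, retrocopies of the spliced messenger RNA, that share its sequence. The annotation holds 396 pseudogenes that match 34 of the 47 members at 90% identity or more over 50% or more of the principal isoform, up to 81 for Rpl7a. Of these copies 268 were listed at 0 and 46 had a mean TPM of at least 1. Together copies took 20.1% ± 3.05 of the counts of members and copies. For 5 members the copies' share of counts, averaged over libraries, was above 50%: Rps2 with 76.2% ± 0.862, Rpl27 with 63.6% ± 7.84, Rps7 with 57.9% ± 10.2, Rpl7a with 56.1% ± 2.37 and Rpl19 with 50.1% ± 9.89 (SD, n = 3). In replicate 3 Rpl19 itself had more counts than its copies, 163 against 103. The division of reads between these genes and their copies is uncertain, and its part in their levels and shares was not tested.

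No member was called more than 2-fold apart between the quantifications. Each gene's level in the alignment-free table was compared with that in the alignment-based table of the same library, both relative to expressed genes. Of 47 members 0 were higher and 0 lower (limma treat, Benjamini-Hochberg adjusted), 2 had an unadjusted p under 0.05, and the fit called 5.66% of 18397 genes higher and 0.75% lower. Without a filter on low values 1 member was called, Rps27, and without a band 26 were. The median difference over members was 0.14 log2 units, against 0.06 over all genes tested.

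The widest differences were positive. Rps27 had a TPM of 76.7, 47.1 and 45.7 alignment-free and 9.88, 13.3 and 9.29 alignment-based, with no overlap, and a difference of 1.89 ± 0.21 log2 units (SE; limma treat, Benjamini-Hochberg adjusted p = 0.0883; above 0 in all 3 libraries). Rpl24 had 84.4, 50.5 and 50.4 alignment-free and 13.6, 20.7 and 8.54 alignment-based, a difference of 1.70 ± 0.28 (adjusted p = 0.275, limma treat). Rps7 had 40.1, 25.9 and 42.1 alignment-free and 6.97, 10.95 and 12.04 alignment-based, a difference of 1.39 ± 0.22 (adjusted p = 0.509, limma treat). The most negative was Rpl30 at -0.73 ± 0.08. Copies took 48.3% ± 14.6 of the counts of Rps27 and its copies, 10.3% ± 1.07 for Rpl24, 57.9% ± 10.2 for Rps7 and 2.38% ± 1.17 for Rpl30. A link between copies and the differences between tables was not tested.

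**Figure D5:**
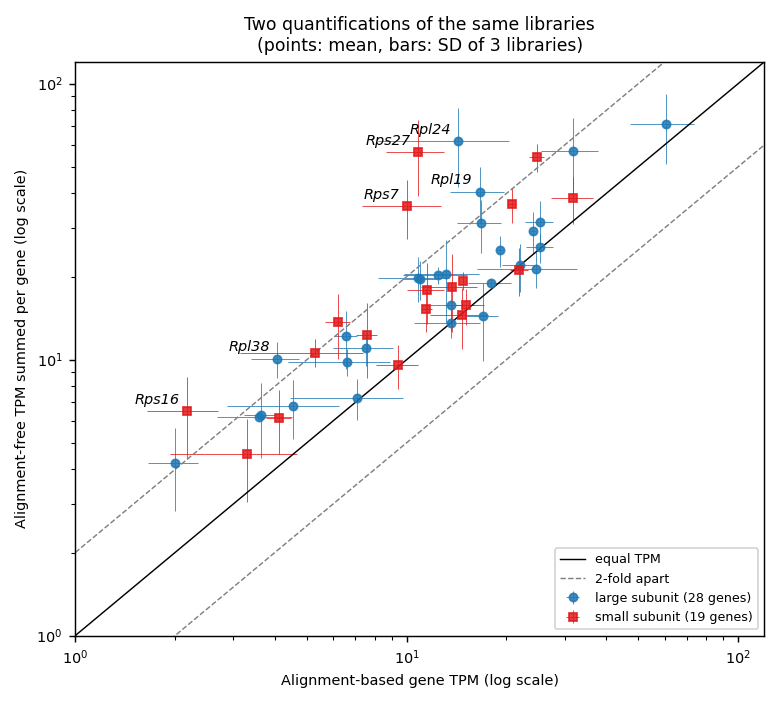
Mean TPM per gene in the alignment-free (vertical) and alignment-based (horizontal) tables on log scales, with SD over 3 libraries; the solid line is equal TPM and the dashed lines 2-fold apart, before the scaling used in the test. Above the upper dashed line lie 10 of 47 members, with Rps27, Rpl24 and Rps7 the farthest, and 0 lie below the lower one.

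Overlapping genes limit some values. The annotation places a gene on the opposite strand over 13 members, among them Rpl3, Rpl5, Rpl10a, Rps18, Rpl30, Rps2, Rps14 and Rpl35, and a gene on the same strand over 4, Rpl13, Rpl13a, Rpl19 and Rpl24. Whether counting used strand is not given in the sources used here, so reads of these members and of the overlapping genes cannot be told apart where they overlap, introns included.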

How the data were processed

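Total RNA-seq tables of 3 libraries of 1 group were used. Per the deposited notes and file headers, the authors derived estimated counts and TPM per transcript from the reads and an index (alignment-free, the column layout of kallisto), and expected counts and TPM per gene and transcript from transcriptome alignments (alignment-based, the layout of RSEM), with assembly mm10 and annotation M21; program names, their settings and use of strand: not given in the sources used here. Of 81881 rows of the gene table, 55536 annotated genes were used.

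Levels are log2(TPM + 0.1) minus the library's median nuclear protein-coding gene with a mean TPM of at least 1, tested with limma 3.58.1 (treat, 2-fold, trended prior) over members, lists and other genes averaging 0.1 TPM or more, with Benjamini-Hochberg adjustment at 0.05; since 0.1 is added, differences of low genes are understated. A limma p-value here tests whether a level, or a difference between tables, lies beyond the 2-fold band. Its error comes only from the spread between these 3 libraries, moderated by that of other genes. Spread used edgeR 4.0.16 on rounded counts (prior count 2), with DESeq2 1.42.0 size factors as alternative. Introns, isoform types and snoRNAs came from GENCODE M21; copies from blastn 2.17.0. Shares are of transcript TPM.

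The members and lists were chosen with earlier results of these data known. Named with values were the 5 highest and 5 lowest members by TPM and by retained-intron share, members called lower or different between tables, and the 2 highest and 2 lowest genes of each list, of which 1 is not reported here; others were chosen after their values were seen. Intron-bearing shares, copies, overlaps, snoRNA and start-site counts were added after seeing the data.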

Additional observations from a re-analysis of the deposited data

How the results depend on the processing

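No paired analysis was possible because there is 1 group of samples and no second group to pair replicates with; differences between tables and between subunits were taken within each library. Of the members, 31 were higher without a band, 1 with a band of 4-fold and 25 in the alignment-free table, against 14; 8 were lower without a band, 0 with a band of 4-fold, 0 in the alignment-free table and 1 with a pseudocount of 1, against 2. Leaving out 1 library in turn gave 11 to 13 higher and 1 to 2 lower. Shares of all genes called are not given here for these settings. The members' median level was 1.24 in the alignment-free table and turned to -0.33 when only genes at 5 TPM or more set the median expressed gene. The median retained-intron share was 64.2% from the alignment-based transcript table and 50.2% as a share of estimated counts, the protein-coding share 29.3% and 40.9%, and the intron-bearing share 76.3% and 67.8%; this last set was added after seeing the data. The large minus small difference in retained-intron share reversed to 7.29 and 4.23 points in these tables and ranged from -2.26 to 1.71 when 1 library was left out. Between tables, 1 member was called with no filter on low values and 26 without a band. The cause of these changes was not tested, beyond the width of the band. The large minus small difference in level was 0.21 log2 units in the alignment-free table, against 0.37. Gene levels rest on as few as 8 expected counts in a library and isoform shares on as few as 15 estimated counts per gene.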
